A study of Mus musculus with 6 samples.

Results

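The genes described here are 33 genes of the G2 phase and mitosis, chosen by gene symbol from a list that runs from cyclins to cytokinesis proteins. All 33 were found in the deposited tables, each on 1 of 54752 gene identifiers, and all 33 were among the 13539 genes tested. The RNA came from pro-B cells, the bone marrow precursors that rearrange the immunoglobulin heavy chain gene. They were isolated by FACS from adult mice of strain C57BL/6. The Skiv2l-deleted group was 3 mice of genotype Skiv2lfl/fl-Cd79a-Cre and the control group was 3 mice of genotype Skiv2lfl/fl, with 1 library per mouse and floxed Skiv2l alleles in both groups. The SKIV2L helicase unwinds messenger RNA for decay by the cytosolic exosome, as part of the SKI complex, and the comparison addresses what its deletion in the B lineage does to pro-B cell transcripts. Cre acts here from Cd79a, a B lineage gene, and the labels name no Cre in the controls, so an effect of Cre and an effect of Skiv2l deletion cannot be told apart.

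Entry into mitosis is driven by CDK1 bound to cyclin B, helped by the CDC25 phosphatases, by Polo-like kinase and by the Aurora kinases. Exit depends on the anaphase-promoting complex, a ubiquitin ligase that marks cyclins and securin for destruction and so frees separase to part the chromosomes. Many of these genes are transcribed late in the cell cycle through promoter elements called CHR, bound by the MuvB complex with B-MYB and FOXM1, and through CCAAT boxes, bound by NF-Y. Pro-B and large pre-B cells divide under IL-7 and pre-B cell receptor signals, while small pre-B cells rest.

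The depth was 1.74 to 2.40 Gb of aligned bases per library. Skiv2l itself stood at 25.4, 20.2 and 46.3 in control libraries against 9.53, 16.1 and 10.9 FPKM in Skiv2l-deleted ones, without overlap but not past the threshold (log2 fold change −1.21 ± 0.32 (SE), limma adjusted p = 0.063), and the sources used here do not give which exons are floxed. The B lineage genes Pax5, Ebf1, Il7r and Cd79b, from the list of pro-B markers, were present in all 6 libraries, at 87.9 FPKM or more. Cd79a, from which Cre acts, stood at 726, 640 and 739 in control libraries against 367, 368 and 441 FPKM in Skiv2l-deleted ones (log2 fold change −0.84 ± 0.12 (SE), limma adjusted p = 0.0123). Its part in the lower mitosis messages was not tested. Control 3 and Skiv2l-deleted 2 stood apart on the second principal component, which held 33.1% of the variance. Granulocyte and monocyte markers were high in the same libraries, with 8 markers summing to 1451 FPKM in control 3 and 2631 FPKM in Skiv2l-deleted 2 against 85.1 to 410.6 FPKM in the other 4.

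Most of the 33 mitosis genes fell in the Skiv2l-deleted cells. Of the 33, 21 fell and 0 rose (limma adjusted p below 0.05), where 3.87% of all tested genes fell and 4.97% rose (1197 in all, or 8.84% in either direction). The median log2 fold change was −0.74, against 0.06 over all genes tested, and all 33 values were below 0, from −1.04 for Cdca3 to −0.27 for Ect2. Mean FPKM (a fragment count scaled to transcript length and sequencing depth) was lower by 20.9% to 52.5%, with a median of 40.5%. In 31 of the 33 genes the highest Skiv2l-deleted value lay under the lowest control value, where 12.3% of all tested genes did so. In sorted cells measured in bulk, fewer cells in G2 and mitosis and less of these messages per cell cannot be told apart. For a single gene the exact two-sided permutation test of 3 against 3 libraries cannot go below p = 0.1, the value it gave for these 31 genes, so the calls are those of limma over all genes.

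The 12 genes that did not pass had log2 fold changes from −0.88 for Cenpf to −0.27 for Ect2. Of these, 8 had a limma adjusted p between 0.05 and 0.1, and 4 lay above that (Bub1b, Hmmr, Kif20a and Ect2). The spread was wider among the controls, with a median coefficient of variation of 15.7% over the 33 genes against 6.37% in the Skiv2l-deleted libraries. Control 2 was the highest of the 6 libraries in 24 genes, control 3 in 8 and control 1 in 1, Aurkb. Skiv2l-deleted 2 was the lowest of the 6 in 22 genes.

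**Figure D1:**
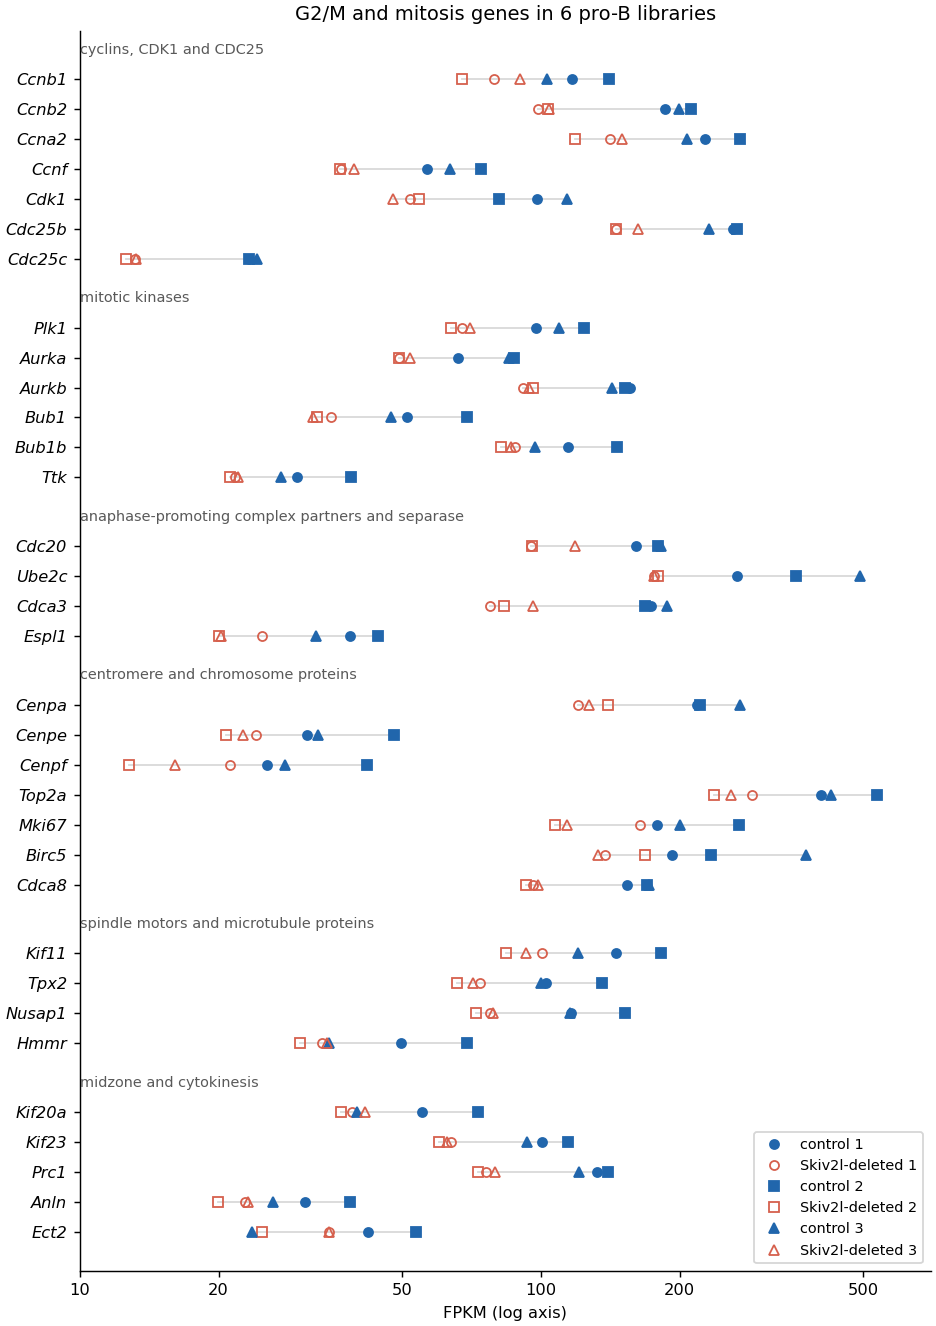
FPKM of each of the 33 genes (log axis) in the 3 control libraries (filled blue) and the 3 Skiv2l-deleted libraries (open red), with marker shape giving the replicate number and genes grouped by role. The red points lie left of the blue ones in all genes but Kif20a and Ect2, where control 3 lies among or below them.

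Many of the promoters of these genes hold CHR and CCAAT letters, which were not used to choose them. A RefSeq start site (GRCm38.p6) could be matched for 28 of the 33 genes, all but Ccna2, Cdc25c, Aurkb, Tpx2 and Kif20a, and the window from 250 bases before to 50 bases after it was searched on both strands. The stretches below run from 100 bases before to 25 bases after the start for the 6 genes with the smallest limma p among those where it holds fewer than 31 bases of annotated UTR. Capitals mark the CHR element (TTTGAA, or TTCGAA in Cdc25b) and the CCAAT box (CCAAT or, on the other strand, ATTGG). They are shown as examples of where the letters lie, and a part of these elements in the lower messages was not tested.
Ccnb2: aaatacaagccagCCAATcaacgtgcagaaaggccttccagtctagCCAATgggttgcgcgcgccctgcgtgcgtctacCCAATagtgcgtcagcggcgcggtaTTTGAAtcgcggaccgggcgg
Prc1: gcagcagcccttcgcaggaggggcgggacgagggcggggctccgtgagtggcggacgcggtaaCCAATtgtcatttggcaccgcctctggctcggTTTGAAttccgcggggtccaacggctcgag
Cdc25b: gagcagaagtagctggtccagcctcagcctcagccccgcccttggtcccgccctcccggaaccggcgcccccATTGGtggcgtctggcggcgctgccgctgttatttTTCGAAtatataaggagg
Kif23: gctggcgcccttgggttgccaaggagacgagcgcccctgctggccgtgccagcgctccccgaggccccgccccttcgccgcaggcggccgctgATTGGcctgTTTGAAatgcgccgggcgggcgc
Ccnf: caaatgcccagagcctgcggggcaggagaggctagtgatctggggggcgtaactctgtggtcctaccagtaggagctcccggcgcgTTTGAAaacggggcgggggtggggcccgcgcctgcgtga
Plk1: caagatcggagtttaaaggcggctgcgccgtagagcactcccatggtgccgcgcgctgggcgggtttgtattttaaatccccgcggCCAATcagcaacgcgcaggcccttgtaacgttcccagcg
Ccnb2 lies at chr9:70421530-70421654, Kif23 at chr9:61946775-61946899 and Ccnf at chr17:24251385-24251509, all on the minus strand. Prc1 lies at chr7:80294351-80294475, Cdc25b at chr2:131186848-131186972 and Plk1 at chr7:122159335-122159459, all on the plus strand. In Ccnb2, 3 CCAAT boxes stand before a CHR element whose first base is at position 5, counted from 1 at the start. Another CHR match of Ccnb2, at position −167, lies upstream of the stretch shown. A single CCAAT box precedes the CHR element at position −5 in Prc1, at position 3 in Kif23 and, in its TTCGAA form, at position 8 in Cdc25b. In Ccnf a CHR element lies at position −14, with another at position −130 and the CCAAT boxes upstream of the stretch shown. In Plk1 a CCAAT box stands at position −14 and the CHR element begins at position 31, downstream of the stretch shown. RefSeq places the starts of Cdca3 and Cdca8 629 and 2394 bases inside the gene as the deposited tables bound it.

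Over the 28 windows, TTTGAA was present on either strand in 22 (78.6%), against 1075 of 8719 windows of tested genes (12.3%). On the coding strand it was present in 19 of 28 (67.9%), against 6.27% of all windows. CCAAT was present in 25 of 28 (89.3%), against 40.1%, and both elements in 21 of 28 (75%), against 5.37%. The palindrome TTCGAA was present in 4 of 28 (14.3%, against 2.18%), which were Cdc25b, Bub1, Bub1b and Top2a. The E2F motif GGCGGGAA was present in 0 of 28, against 4.53% of all windows and 5 of the 25 matched genes of G1/S and DNA replication. Of the 24 TTTGAA matches on the coding strand, 17 began within 60 bases of the start. From 100 bases before the start to 50 after it, 18 of 28 windows (64.3%) held one on that strand, against 213 of 8719 (2.44%). Of the matched genes that fell, 14 of 17 held TTTGAA, and of those that did not pass, 8 of 11 did. TTTGAA was not found in the windows of Ccnb1, Cdc25b, Bub1, Cenpe, Birc5 and Nusap1, and CCAAT was not found in those of Birc5, Nusap1 and Anln. These are matches of letters, given without a test, and binding was not measured.

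**Figure D2:**
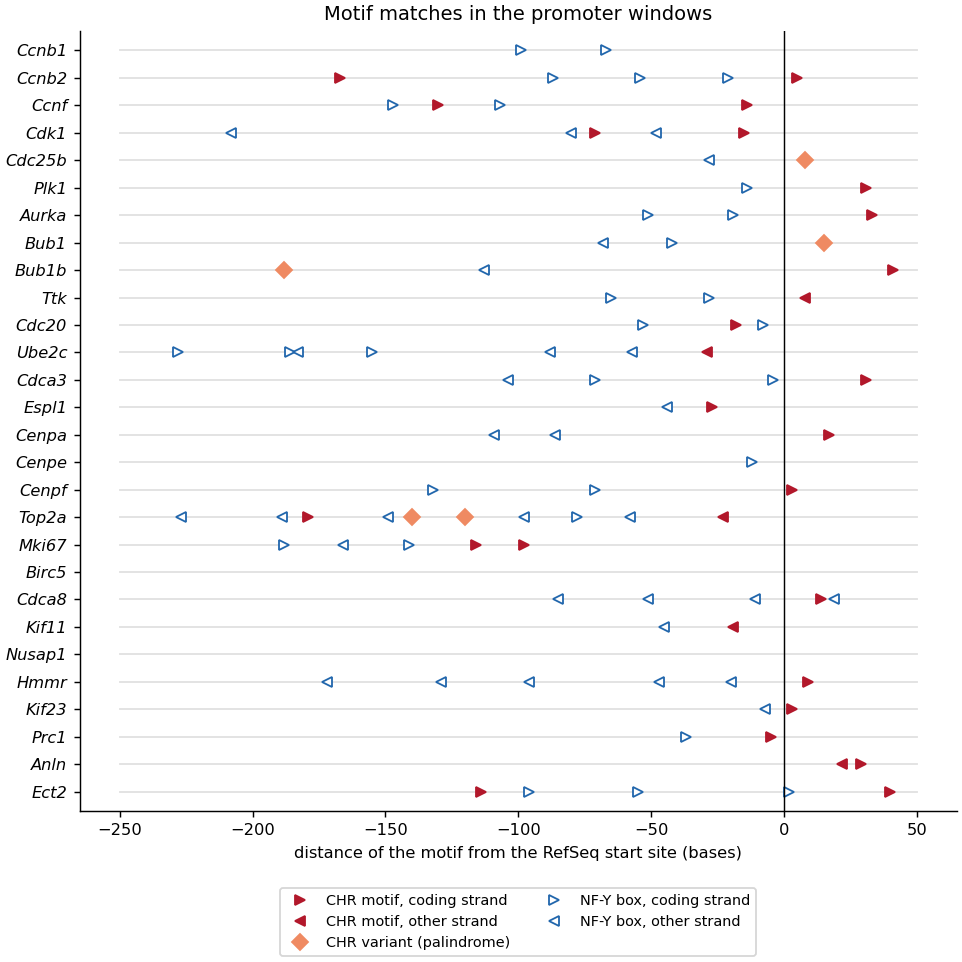
Positions of the CHR motif (filled red), its palindromic variant (filled diamonds) and the CCAAT box bound by NF-Y (open blue) in the 28 matched promoter windows, as the distance of the first base from the RefSeq start in bases, with the triangle's direction giving the strand. Of 24 CHR matches on the coding strand, 17 begin within 60 bases of the start, while most CCAAT boxes lie before it.

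Of the 7 genes for cyclins, their kinase CDK1 and its activating phosphatases, 6 fell. Ccnb2, which encodes cyclin B2, stood at 186, 212 and 199.7 in control libraries against 98.7, 104 and 104 FPKM in Skiv2l-deleted ones, 48.8% lower (log2 fold change −0.96 ± 0.10 (SE), limma adjusted p = 0.00493). Cdk1, the kinase that mitotic cyclins activate, stood at 98.2, 81.2 and 114 in control libraries against 52.0, 54.4 and 47.9 FPKM in Skiv2l-deleted ones (log2 fold change −0.90 ± 0.14 (SE), limma adjusted p = 0.0146). The groups were far apart in both genes, with the lowest control above the highest Skiv2l-deleted library by more than the range within the latter. Ccna2, for cyclin A2 of S phase and G2, stood at 227, 271 and 208 in control libraries against 141, 119 and 149.9 FPKM in Skiv2l-deleted ones (log2 fold change −0.78 ± 0.14 (SE), limma adjusted p = 0.0223). Ccnf, for cyclin F, which directs a ubiquitin ligase, stood at 56.7, 74.3 and 63.6 in control libraries against 36.8, 36.6 and 39.4 FPKM in Skiv2l-deleted ones (log2 fold change −0.76 ± 0.12 (SE), limma adjusted p = 0.0158). Both were highest in control 2 and lowest in Skiv2l-deleted 2. The phosphatase gene Cdc25b stood at 261, 266 and 232 in control libraries against 145, 145 and 162 FPKM in Skiv2l-deleted ones (log2 fold change −0.74 ± 0.11 (SE), limma adjusted p = 0.0113). Its relative Cdc25c stood at 23.2, 23.3 and 24.2 in control libraries against 13.1, 12.6 and 13.2 FPKM in Skiv2l-deleted ones (log2 fold change −0.81 ± 0.10 (SE), limma adjusted p = 0.00807), with the replicates of each group close together. Ccnb1, which encodes cyclin B1, stood at 117, 140.5 and 103 in control libraries against 79.3, 67.5 and 90.0 FPKM in Skiv2l-deleted ones, 34.3% lower without overlap but not past the threshold (log2 fold change −0.60 ± 0.16 (SE), limma adjusted p = 0.0624).

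Of these calls, that of Ccnb2 held when any 1 library was left out (highest limma adjusted p = 0.0363). Leaving out Skiv2l-deleted 3 lost Cdc25c (0.052), and leaving out Skiv2l-deleted 1 or 3 lost Ccnf and Cdc25b (highest limma adjusted p = 0.08 and 0.0684). Cdk1 was lost without control 1 or Skiv2l-deleted 1 or 3 (0.0766), and Ccna2 without any library but control 3 (highest limma adjusted p = 0.088), whereas Ccnb1 passed without control 3 (0.0357). Relative to the mean of the 33 genes in each library, Ccnb2 was lower in the Skiv2l-deleted cells by a further −0.24 on the log2 scale with no overlap between groups, a description without a test, while Ccnb1 was 0.12 higher with overlap. On this relative scale 29 of the 33 genes overlapped between groups, 1 was lower without overlap (Ccnb2) and 3 were higher (Bub1b, Ttk and Anln). The share of all tested genes without overlap on this scale was not computed. These counts therefore cannot be read against it, and no result about these genes is drawn from them. Ccnb1 and Ccnb2 have the pseudogenes Ccnb1-ps, listed at 11.7 to 24.4 FPKM, and Ccnb2-ps, listed at 2.08 to 2.97 FPKM, with which reads may be shared.

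Of 6 mitotic kinase genes, 4 fell. Plk1, the Polo-like kinase that acts from centrosome maturation to cytokinesis, stood at 97.4, 124 and 109.6 in control libraries against 67.6, 63.8 and 70.1 FPKM in Skiv2l-deleted ones (log2 fold change −0.70 ± 0.12 (SE), limma adjusted p = 0.0174). Aurka, the Aurora kinase of spindle poles, stood at 66.1, 87.2 and 85.2 in control libraries against 49.3, 49.3 and 51.9 FPKM in Skiv2l-deleted ones (log2 fold change −0.64 ± 0.13 (SE), limma adjusted p = 0.0293). In both genes control 1 was the lowest control, and the Skiv2l-deleted libraries lay close together. Aurkb, the Aurora kinase of the chromosomal passenger complex, which corrects faulty attachments of chromosomes to the spindle, stood at 156, 152 and 142 in control libraries against 91.5, 96.3 and 94.2 FPKM in Skiv2l-deleted ones (log2 fold change −0.67 ± 0.09 (SE), limma adjusted p = 0.01). Bub1, a kinase of the spindle checkpoint at kinetochores, stood at 51.2, 69.0 and 47.3 in control libraries against 35.1, 32.7 and 32.1 FPKM in Skiv2l-deleted ones (log2 fold change −0.71 ± 0.15 (SE), limma adjusted p = 0.0349).

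The other two checkpoint genes did not pass. Bub1b, which encodes the checkpoint protein BUBR1, stood at 115, 147 and 97.0 in control libraries against 87.7, 81.8 and 86.0 FPKM in Skiv2l-deleted ones (log2 fold change −0.46 ± 0.16 (SE), limma adjusted p = 0.12), and Ttk, which encodes the checkpoint kinase MPS1, at 29.6, 38.7 and 27.3 in control libraries against 21.7, 21.2 and 22.0 FPKM in Skiv2l-deleted ones (log2 fold change −0.52 ± 0.15 (SE), limma adjusted p = 0.0706). Both had control 2 well above the other controls and no overlap between groups, and relative to the mean of the 33 genes both were higher in the Skiv2l-deleted cells (by 0.26 and 0.20, without overlap and without a test). Bub1b and Ttk passed without control 3 (limma adjusted p = 0.0327 and 0.0349). The Aurkb call was lost without Skiv2l-deleted 1 or 3 (highest limma adjusted p = 0.0654), Plk1 and Aurka without control 2 or any Skiv2l-deleted library (0.0832 and 0.124), and Bub1 without any library but control 3 (highest limma adjusted p = 0.144). With control 3 and Skiv2l-deleted 2 both left out, Aurka alone of the 21 lost its call (limma adjusted p = 0.065).

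All 4 genes grouped as anaphase-promoting complex partners and separase fell, with a median log2 fold change of −0.91. Of these, Cdca3 was placed in the group although it acts at mitotic entry. Cdca3, which encodes an adaptor protein that promotes entry into mitosis, stood at 174, 168 and 188 in control libraries against 77.5, 83.3 and 96.0 FPKM in Skiv2l-deleted ones, 51.5% lower (log2 fold change −1.04 ± 0.12 (SE), limma adjusted p = 0.00644). Ube2c, the ubiquitin-conjugating enzyme that serves the complex, stood at 267, 357 and 493 in control libraries against 176, 179 and 176 FPKM in Skiv2l-deleted ones (log2 fold change −1.02 ± 0.21 (SE), limma adjusted p = 0.0312). The Skiv2l-deleted values of Ube2c were nearly equal, while its controls ranged widely with control 3 the highest. Cdc20, which activates the complex in mitosis, stood at 161, 179 and 182 in control libraries against 95.0, 95.5 and 118 FPKM in Skiv2l-deleted ones (log2 fold change −0.76 ± 0.12 (SE), limma adjusted p = 0.016). Espl1, which encodes separase, stood at 38.6, 44.4 and 32.5 in control libraries against 24.9, 20.1 and 20.2 FPKM in Skiv2l-deleted ones (log2 fold change −0.79 ± 0.15 (SE), limma adjusted p = 0.0244). Cdca3 was called in all 6 omissions of 1 library (highest limma adjusted p = 0.0366). The call was lost for Cdc20 without control 2 or Skiv2l-deleted 1 or 2 (0.0833), for Ube2c without control 2 or any Skiv2l-deleted library (0.119), and for Espl1 without any library but control 3 (highest limma adjusted p = 0.115).

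Among 7 centromere and chromosome genes, 3 fell and the groups did not overlap in any. Cenpa, the histone H3 variant that marks centromeres, stood at 219, 222 and 269.7 in control libraries against 120.2, 139.6 and 127 FPKM in Skiv2l-deleted ones (log2 fold change −0.87 ± 0.12 (SE), limma adjusted p = 0.0109). Top2a, the topoisomerase that untangles sister chromatids and the most abundant of the 33 messages, stood at 404, 535 and 426 in control libraries against 287, 237 and 258 FPKM in Skiv2l-deleted ones (log2 fold change −0.79 ± 0.14 (SE), limma adjusted p = 0.0208). Cdca8, which encodes borealin of the chromosomal passenger complex, stood at 154, 169.8 and 172 in control libraries against 96.2, 93.0 and 98.5 FPKM in Skiv2l-deleted ones (log2 fold change −0.78 ± 0.10 (SE), limma adjusted p = 0.0084). Mki67, which encodes the Ki-67 protein that coats mitotic chromosomes and serves as a marker of cycling cells, stood at 179, 269 and 200.4 in control libraries against 164, 108 and 114 FPKM in Skiv2l-deleted ones and did not pass (log2 fold change −0.75 ± 0.21 (SE), limma adjusted p = 0.0746). Its Skiv2l-deleted 1 value lay close to the lowest control, and the groups did not overlap. Birc5, which encodes survivin of the same passenger complex, stood at 193, 234 and 375 in control libraries against 138, 168 and 133 FPKM in Skiv2l-deleted ones (log2 fold change −0.82 ± 0.24 (SE), limma adjusted p = 0.087), with control 3 far above the other controls. The kinetochore motor gene Cenpe stood at 31.1, 48.1 and 32.8 in control libraries against 24.1, 20.7 and 22.6 FPKM in Skiv2l-deleted ones (log2 fold change −0.68 ± 0.18 (SE), limma adjusted p = 0.0596). Cenpf, for another kinetochore protein, stood at 25.5, 41.9 and 27.9 in control libraries against 21.1, 12.8 and 16.1 FPKM in Skiv2l-deleted ones (log2 fold change −0.88 ± 0.24 (SE), limma adjusted p = 0.0663). Calls were lost for Cenpa and Cdca8 without Skiv2l-deleted 1 or 3 (highest limma adjusted p = 0.063 and 0.053) and for Top2a without any library but control 3 (0.0958). The Mki67, Birc5, Cenpe and Cenpf values passed in none of the 6 omissions, at limma adjusted p from 0.0516 to 0.26. With control 3 and Skiv2l-deleted 2 both left out, Birc5 passed (limma adjusted p = 0.0302) and Mki67, Cenpe and Cenpf did not.

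Of 4 genes for spindle motors and microtubule proteins, 2 fell. Tpx2, which nucleates microtubules and activates Aurora A, stood at 102, 136 and 100.1 in control libraries against 73.9, 65.8 and 71.4 FPKM in Skiv2l-deleted ones (log2 fold change −0.66 ± 0.14 (SE), limma adjusted p = 0.0338), and Nusap1, which bundles spindle microtubules, at 116, 152 and 116 in control libraries against 77.6, 72.5 and 78.8 FPKM in Skiv2l-deleted ones (log2 fold change −0.73 ± 0.13 (SE), limma adjusted p = 0.0223). In both, control 2 was the highest library. Kif11, the motor that pushes spindle poles apart, stood at 145, 182 and 120.3 in control libraries against 101, 84.0 and 92.9 FPKM in Skiv2l-deleted ones and narrowly missed the threshold (log2 fold change −0.67 ± 0.17 (SE), limma adjusted p = 0.0529). Hmmr, which encodes a spindle protein, stood at 49.7, 69.3 and 34.7 in control libraries against 33.5, 30.0 and 34.4 FPKM in Skiv2l-deleted ones (log2 fold change −0.58 ± 0.23 (SE), limma adjusted p = 0.179), so that control 3 lay barely above the Skiv2l-deleted libraries. Kif11 and Hmmr passed without control 3 (limma adjusted p = 0.019 and 0.0263). Tpx2 lost its call without any library but control 3, and Nusap1 without control 1 or any Skiv2l-deleted library (highest limma adjusted p = 0.129 and 0.0956).

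Midzone and cytokinesis genes were the least uniform, with 2 of 5 falling and a median of −0.50. Prc1, which bundles the microtubules of the midzone, stood at 133, 139.7 and 121 in control libraries against 76.1, 73.1 and 79.6 FPKM in Skiv2l-deleted ones (log2 fold change −0.77 ± 0.10 (SE), limma adjusted p = 0.00929). Kif23, the kinesin of the centralspindlin complex, stood at 101, 114 and 93.1 in control libraries against 63.7, 60.2 and 62.7 FPKM in Skiv2l-deleted ones (log2 fold change −0.71 ± 0.11 (SE), limma adjusted p = 0.0138). Both were clearly separated between groups. Anln, for the ring scaffold anillin, stood at 30.8, 38.6 and 26.3 in control libraries against 22.8, 19.9 and 23.2 FPKM in Skiv2l-deleted ones (log2 fold change −0.50 ± 0.16 (SE), limma adjusted p = 0.0971), without overlap, and relative to the mean of the 33 genes it was 0.22 higher. Kif20a, a kinesin that carries the passenger complex to the midzone, stood at 55.1, 72.9 and 39.8 in control libraries against 38.9, 36.8 and 41.6 FPKM in Skiv2l-deleted ones (log2 fold change −0.47 ± 0.21 (SE), limma adjusted p = 0.222). Ect2, the activator of RhoA at the cleavage site, stood at 42.1, 53.5 and 23.6 in control libraries against 34.7, 24.9 and 34.7 FPKM in Skiv2l-deleted ones (log2 fold change −0.27 ± 0.30 (SE), limma adjusted p = 0.63). In Kif20a control 3 lay below Skiv2l-deleted 3, and in Ect2 control 3 was the lowest of all 6 libraries. Anln and Kif20a passed without control 3 (limma adjusted p = 0.0353 and 0.0315) and Ect2 did not (0.0881), while without control 2 the Ect2 log2 fold change was −0.02. Calls were lost for Prc1 without Skiv2l-deleted 1 or 3 (0.0565) and for Kif23 without control 1 or Skiv2l-deleted 1 or 3 (highest limma adjusted p = 0.0744).

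**Figure D3:**
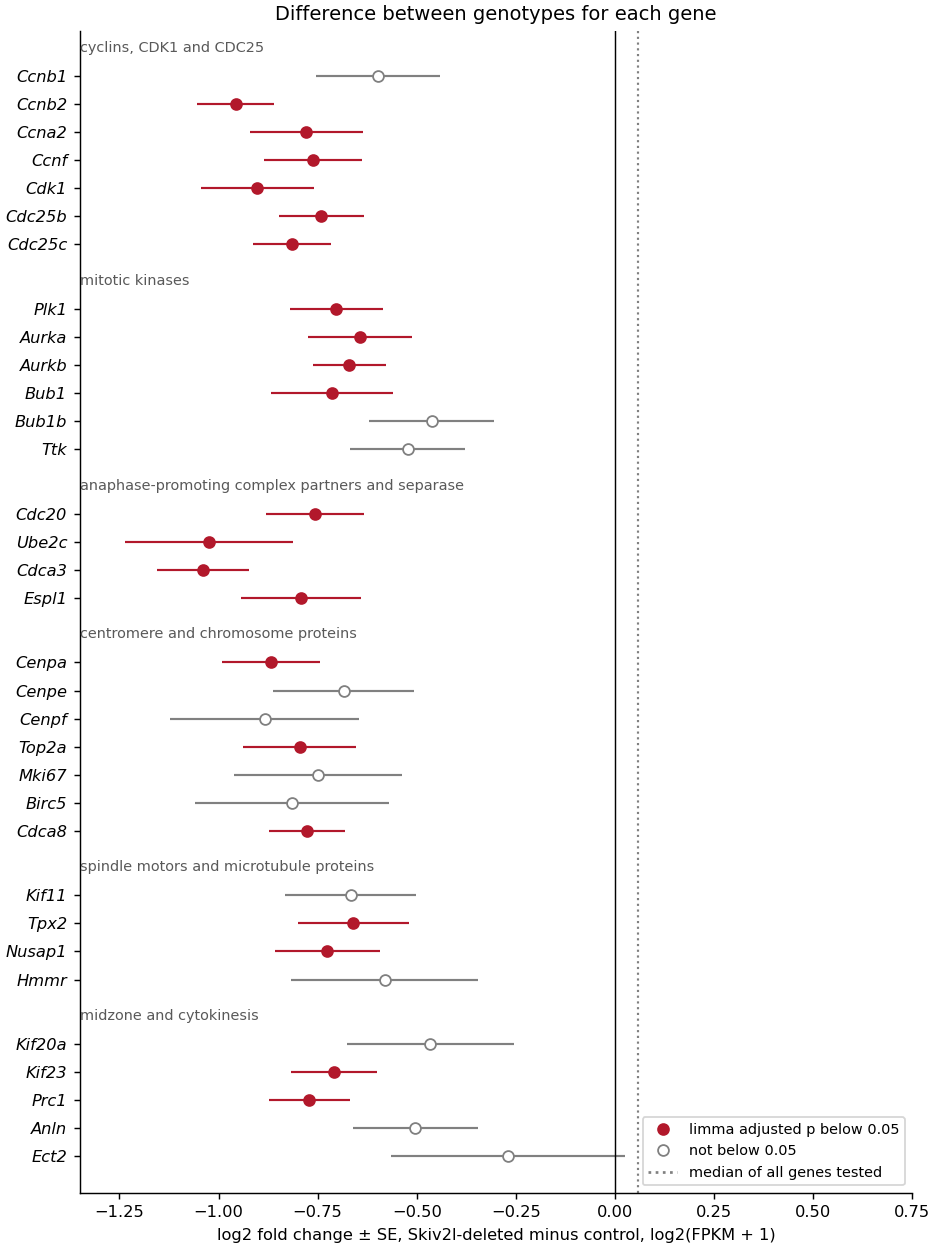
Log2 fold change of each gene, Skiv2l-deleted minus control on log2(FPKM + 1), with its standard error from limma (bars). Filled points mark the 21 genes with an adjusted p below 0.05, the dotted line the median of all tested genes at 0.06, and all 33 points lie left of 0.

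The number of genes called depended on which libraries entered, while the median did not move beyond the range −0.79 to −0.66. Without control 1, 13 of the 33 fell (1.28% of all genes tested), without control 2, 12 (1.76%), and without control 3, 28 (5.47%). Without Skiv2l-deleted 1, only Ccnb2, Cdc25c and Cdca3 passed (3 of 33, where 0.851% of all genes fell), and without Skiv2l-deleted 3, only Ccnb2, Cdc20 and Cdca3 (3 of 33, 0.875%). Without Skiv2l-deleted 2, 11 fell (2.32%). With control 3 and Skiv2l-deleted 2 both left out, the libraries that held the most granulocyte and monocyte message, 24 of the 33 fell (5.73%) at a median of −0.75. With no filter on low values, where more genes share the adjustment, 13 of the 33 fell (0.818% of all genes tested).

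Other genes of the mitotic machinery changed in part. Of 125 further genes in 7 lists, 35 fell (28%, where 3.87% of all tested genes fell), 0 rose and 90 did not pass, with a median log2 fold change of −0.42 and values below 0 in 112. Without control 1, control 2, Skiv2l-deleted 1, 2 or 3, 20, 14, 3, 17 or 4 of them fell. Of all tested genes, 1.28%, 1.76%, 0.851%, 2.32% or 0.875% fell in those fits. Without control 3, 56 of the 125 did (5.47% of all tested genes), and with control 3 and Skiv2l-deleted 2 both left out, 54 (5.73%). In the last pair of settings 1 of the 125 rose.

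Among 23 other mitotic kinesins and spindle proteins, 12 fell (median −0.71). Kif22, the chromosome arm motor, fell from 184 ± 27.4 to 83.1 ± 4.62 FPKM (means ± SD of 3 libraries, with log2 fold change −1.13 ± 0.13 (SE), limma adjusted p = 0.00715), Spag5, which encodes the spindle protein astrin, from 105 ± 5.86 to 51.9 ± 2.09 FPKM (with log2 fold change −1.01 ± 0.10 (SE), limma adjusted p = 0.00429), and Racgap1, the partner of Kif23 in centralspindlin, from 129.6 ± 7.74 to 75.5 ± 2.83 FPKM (with log2 fold change −0.77 ± 0.10 (SE), limma adjusted p = 0.00862). Among 28 outer kinetochore and centromere genes, 10 fell (median −0.50), including the passenger complex scaffold Incenp (−0.74 ± 0.10), Ska2 (−0.72 ± 0.11) and Spc25 of the microtubule-binding complex NDC80 (−0.72 ± 0.11). Of 15 regulators of mitotic entry and exit, 4 fell (median −0.50). Nek2, a kinase that separates centrosomes, fell from 70.3 ± 6.63 to 27.9 ± 3.2 FPKM (with log2 fold change −1.30 ± 0.13 (SE), limma adjusted p = 0.00429), the largest fall in these 7 lists, and Gtse1 (−0.85 ± 0.13) and the CDK subunit gene Cks2 (−0.73 ± 0.13) fell as well. Kif22, Spag5 and Nek2 were called in all 6 omissions. The calls of Racgap1, Incenp, Ska2, Spc25 and Gtse1 were lost without Skiv2l-deleted 1 or 3, and that of Cks2 without control 2 or any Skiv2l-deleted library.

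Condensin and cohesin genes fell in 5 of 21 (median −0.53), among them the condensin subunits Ncapd2 (−0.77 ± 0.10) and Ncaph2 (−0.53 ± 0.11) and Cdca5, which encodes the cohesin protector sororin (−0.69 ± 0.11). The per-library median of this list, relative to the control mean, was −0.40 in control 3, among the Skiv2l-deleted values of −0.26, −0.54 and −0.42. A list of 17 genes for the anaphase-promoting complex held its subunits, an inhibitor, an enzyme and an activator, with a median of −0.15. Of these, 2 fell, the chain-extending enzyme Ube2s (−0.76 ± 0.12) and the G1 activator Fzr1 (−0.53 ± 0.12). No subunit or inhibitor in the list was called. Of 8 centriole genes, Cenpj (−0.52 ± 0.12) fell, and the list median in control 3 (−0.32) again lay among those of the Skiv2l-deleted libraries (−0.40 to −0.23). Leaving out Skiv2l-deleted 1 or 3 lost the call of each gene named here, and the calls of Ncaph2, Fzr1 and Cenpj were lost without any library but control 3.

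A list of 13 genes for regulators of mitotic transcription covered FOXM1, B-MYB and the MuvB complex. It also held E2f4, E2f5, Rbl1 and Rbl2, whose products repress mitotic genes together with MuvB. Of the 13, 1 fell, Foxm1, and the median of −0.23 thus mixes activators with repressors. Foxm1, the forkhead factor that drives G2 and mitotic genes, stood at 129, 116 and 84.9 in control libraries against 60.3, 59.5 and 60.4 FPKM in Skiv2l-deleted ones (log2 fold change −0.84 ± 0.16 (SE), limma adjusted p = 0.0246), with the Skiv2l-deleted libraries close together below every control. That call was lost without any library but control 3 (highest limma adjusted p = 0.105). Mybl2, which encodes B-MYB, stood at 38.4, 37.2 and 26.2 in control libraries against 31.4, 25.6 and 28.2 FPKM in Skiv2l-deleted ones, overlapping between groups (log2 fold change −0.23 ± 0.17 (SE), limma adjusted p = 0.452).

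Genes of the preceding phase had a smaller median difference, which was not tested against that of the mitosis genes. Of 33 genes of G1/S and DNA replication, 9 fell and 0 rose, with a median of −0.37, where 3.87% of all tested genes fell. They included the ribonucleotide reductase subunit Rrm2 (−0.74 ± 0.14), Rfc4 of the clamp loader (−0.56 ± 0.11) and Gins3 of the replicative helicase (−0.64 ± 0.11), each of which lost its call without Skiv2l-deleted 1 or 3. Without control 1, control 2 or Skiv2l-deleted 2, 1 of these 33 fell, where 1.28%, 1.76% or 2.32% of all tested genes fell. Without Skiv2l-deleted 1 or 3, where 0.851% or 0.875% of all tested genes fell, 0 did by limma. In those fits 19 and 15 had an unadjusted limma p under 0.05. The share of all tested genes at that unadjusted cutoff is not given here. Without control 3, where 5.47% of all tested genes fell, 12 fell and 1 rose. With control 3 and Skiv2l-deleted 2 both left out, where 5.73% of all tested genes fell, 11 fell and 1 rose. The summed FPKM of the 33 mitosis genes was 4514 ± 403 in the controls and 2611 ± 89.1 in the Skiv2l-deleted libraries (SD, n = 3), and that of the 33 G1/S genes 3098 ± 138 and 2456 ± 36.6. The ratio of the former sum to the latter was 1.33, 1.51 and 1.52 in the controls and 1.07, 1.03 and 1.09 in the Skiv2l-deleted libraries, with no overlap. This ratio is given as a description.

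**Figure D4:**
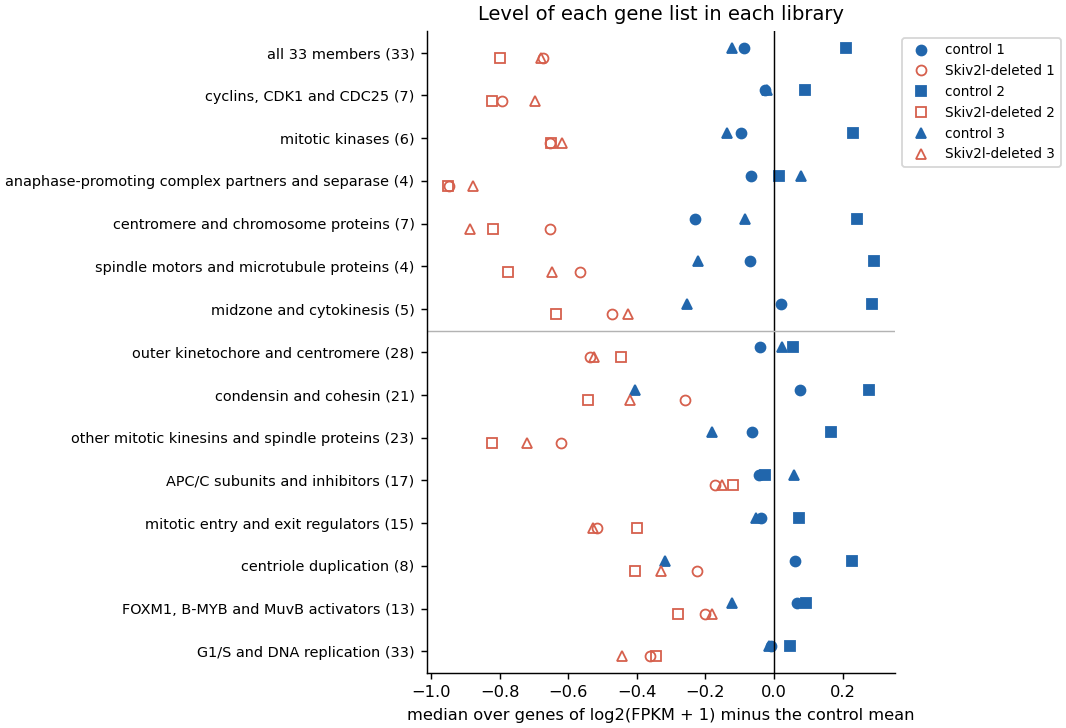
Median over the genes of each list (number of genes in parentheses) of log2(FPKM + 1) minus its control mean, per library, for the 33 genes and their 6 role groups (above the line) and for 7 other mitosis lists and the G1/S list (below). The list labelled activators also holds the repressor genes E2f4, E2f5, Rbl1 and Rbl2. Over the 33 genes the Skiv2l-deleted libraries sit at −0.80 to −0.67 and the controls at −0.12 to 0.21, while over the G1/S genes they sit at −0.44 to −0.34 and −0.01 to 0.05.

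Some markers of B cell stages differed in the same comparison. Of 10 pro-B markers, 5 rose (Kit, Dntt, Vpreb1, Rag1 and Igll1) and 5 did not pass, 4 of them with log2 fold changes below 0 (lowest −0.28 for Il7r), with a summed level of 2262 to 3285 FPKM in the controls and 3938 to 4932 FPKM in the Skiv2l-deleted libraries. Of 7 tested markers of small pre-B and later B cells (of 8), 5 fell and 1 rose (Fcer2a passed the filter on low values only through the controls), and the list summed to 369 to 459 FPKM in the controls and 205 to 302 FPKM in the Skiv2l-deleted libraries. This list also holds Spn, which encodes CD43, a surface protein of pro-B cells, so its counts and sums mix stages. Plasma cell markers summed to 271 to 529 FPKM against 54.9 to 83.9 FPKM, with Tnfrsf17 listed at 0 in all 3 Skiv2l-deleted libraries. Of these 6 markers, Igha and Jchain passed the filter only through the controls, Sdc1 fell (−1.29 ± 0.22), Xbp1 did not pass the test (0.30 ± 0.25), and Tnfrsf17 and Prdm1 were not tested. Erythroid (4 of 8 tested), granulocyte and monocyte (8 of 8), and T and NK cell markers (1 of 8) gave 0 calls by limma in either direction and 0 at an unadjusted p under 0.05. Erythroid markers summed to 5.33 to 8.07 FPKM in the controls and to 8.37, 203.6 and 3.8 FPKM in Skiv2l-deleted 1, 2 and 3, and T and NK cell markers to 2.19 to 16.2 and 4.95 to 32.0 FPKM, with Cd3e listed at 0 in all libraries but Skiv2l-deleted 2. Immediate early and heat shock genes, which rise when cells are handled, gave 0 calls among 9 tested (1 at an unadjusted p under 0.05) and summed to 61.2 to 167 FPKM in the controls and 85.8 to 162 FPKM in the Skiv2l-deleted libraries. The omission of control 1 or 2 left 0 of 6 later B cell markers lower by limma (5 or 6 at an unadjusted p under 0.05), with Fcer2a no longer tested, lost the call of Sdc1, and left 1 or 2 of the pro-B markers higher. The omission of Skiv2l-deleted 1 or 3 left 0 pro-B markers higher by limma, with 5 at an unadjusted p under 0.05, left 2 or 1 of the later B cell markers lower and lost the call of Sdc1. The share of all tested genes at an unadjusted p under 0.05 is not given, so the marker counts at that cutoff cannot be read against it. The part of these markers in the lower mitosis messages was not tested.

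Of the 33 genes, 10 overlap a tested gene on the opposite strand, and the sources used here do not give whether the authors' counting used strand. Their values are therefore less certain. The pairs include Ccna2 with the exosome subunit gene Exosc9, Nusap1 with the centromere gene Oip5, Kif20a with Cdc23, and Prc1 with Rccd1, where the overlap was the longest at 21810 bases. None of the 10 partners was called by limma. Their log2 fold changes ran from −0.77 to 0.21, with the lowest limma adjusted p at 0.07 for the partner of Top2a. At an unadjusted limma p under 0.05 there were 4 of 10, a count that cannot be read against all tested genes, whose share is not given.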

How the data were processed

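Total RNA of pro-B cells was extracted with a column kit and used for stranded mRNA libraries, per the labels' protocols. For each mouse the authors deposited 1 table with FPKM, TPM and mean coverage per gene, per the file headers. Per the submitters' processing notes the authors used GRCm38. The sources used here give no aligner, no quantification software and no sort markers. The ratio of the deposited coverage to FPKM in genes with 1 annotated transcript gave the aligned bases. The files hold no read counts, so no interval for counting error is given.

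FPKM were summed per gene identifier. The test was limma 3.58.1 (lmFit, eBayes with trend, in R 4.3.3) on log2(FPKM + 1) for genes with at least 1 FPKM in 3 or more libraries, with genotype as the term and Benjamini-Hochberg adjustment over all 13539 genes. This scale understates changes of low genes. Counts at an unadjusted p under 0.05 are given without the share of all tested genes at that cutoff, so they cannot be read against it. The fit was tested on simulated data, with 50 genes changed at each fold size. It recovered 26% of 1.5-fold and 58% of 2-fold changes, and 5 of its 142 calls were false. A gene that did not pass may therefore still have changed by such an amount. Alternatives were a pseudocount of 0.1, no filter, the deposited TPM, median-ratio scaling, removal of immunoglobulin and T cell receptor segments, no trend, a replicate block, and omission of libraries. All 33 genes are named; from each other list the 3 called genes with the smallest p are named, with Foxm1 and Mybl2 always, and of the markers those the text turns on. The genes and lists were chosen with earlier results of these data known. Promoter windows came from RefSeq (GRCm38.p6), taking the start nearest to the gene's 5′ end in the tables.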

Additional observations from a re-analysis of the deposited data

How the results depend on the processing

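The log2 fold change of each of the 33 mitosis genes stayed below 0 in all 14 alternatives. Their median ranged from −0.80, with median-ratio scaling, to −0.66, without control 2, and 0 genes rose in any. Median-ratio scaling moved the median of all genes by −0.05. Of 462 values for single genes under an alternative, 358 stayed on their side of the threshold, 93 lost the call and 11 gained it. With no filter on low values 28354 genes were tested, and the calls were 13 of the 33 genes, 19 of 125 other mitosis genes, 5 of 33 G1/S genes and 512 of all genes. Leaving out 1 library gave 3 to 28 of the 33 genes, 3 to 56 other mitosis genes, 0 to 12 G1/S genes and 179 to 1749 of all genes. With control 3 and Skiv2l-deleted 2 both left out, 54 other mitosis genes fell. The cause of these changes was not tested.

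The sources used here do not give whether the replicate numbers in the titles pair the mice. Deviations from the group means correlated at 0.09, −0.43 and −0.35 between libraries of the same number, and no library correlated best with its own number. With 3 libraries per group, such deviations cannot settle whether mice were paired. With the replicate block, 2 of the 33 genes (Ccnb2 and Cdca3, where 1.33% of all genes fell), 4 other mitosis genes, 0 G1/S genes (17 at an unadjusted limma p under 0.05) and 365 of all genes were called. The mean coverage of the 33 genes was 17.6 or more in every library, and the effect of depth on the calls was not tested.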

Other observations

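The CHR letters that mark the promoters of the mitosis genes were also looked up in the other tested genes, with the 33 left out. Of 1053 such genes with TTTGAA on either strand of the promoter window, 65 fell (6.17%, by limma adjusted p below 0.05), against 221 of 7638 without it (2.89%). The median log2 fold changes were close to 0, at 0.01 with TTTGAA and 0.04 with CCAAT. With both TTTGAA and CCAAT, 35 of 447 fell (7.83%), against 251 of 8244 others (3.04%), with medians of −0.02 and 0.06. Of the 3474 genes with CCAAT, whether or not they held TTTGAA, 132 fell (3.80%), against 154 of 5217 without it (2.95%). For the E2F motif GGCGGGAA the shares were 18 of 395 (4.56%) and 268 of 8296 (3.23%). These comparisons were chosen after the promoters of the 33 genes had been seen, are given without a test, and include the other mitosis genes, of whose 108 matched windows 43 held TTTGAA.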
